A study of Mus musculus with 4 samples.

Results

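Cell cycle genes were examined in 1 list of open chromatin regions of mouse salivary gland organoids (mSGOs), obtained by bulk ATAC-seq, which marks stretches of the genome that the Tn5 transposase can enter. The 40 genes were taken by name and comprised 24 genes of mitosis and its preparation (G2/M genes) and 16 genes of DNA replication and of entry into it (S-phase genes). All 40 were found among the 19666 protein-coding genes that could be placed with a strand, and these coding genes served as background. A gene was counted as open at its 5′ end when the midpoint of a listed region lay within 1 kb of the outermost 5′ end of the gene. By this measure 34 of 40 cell cycle genes were open (85%, 95% Wilson interval 70.9 to 92.9), against 40.7% of all coding genes. Regions were listed at the 5′ ends of all 6 Mcm genes, all 6 cyclin and cyclin-dependent kinase genes and all 3 mitotic kinase genes, whereas none was listed for Mki67, Bub1, Kif23, Foxm1, Rrm2 and Tyms.

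The organoids were grown from submandibular glands of C57BL/6 mice, embedded in Matrigel, in a medium the labels call WRY, which contains Wnt3a- and R-spondin1-conditioned medium, EGF, FGF2 and the ROCK inhibitor Y27632. All 4 samples were non-irradiated, and all were cultured organoids with no fresh gland among them. The labels describe 2 samples of passage 1 and 2 of passage 2, with donor ages of 12 weeks for 1 sample of each passage and 3 months for the other. The 2 age labels name about the same age and give no age contrast. No sample had values of its own in the list, so passages could not be compared. Neither replicate spread nor sequencing depth per sample can be given. Intervals given beside shares therefore cover counting error only.

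The list held 69545 summits in 32011 distinct regions. Each region carried a fold over the local background, which is a ratio given by the peak caller and is used here only to describe and rank regions, and a score from the irreproducible discovery rate (IDR) procedure, which reaches at most 1000 and rates how well peaks agree between replicates. Its positions were read as mouse build GRCm38, because 34 of the 40 genes had a region at a GRCm38.p6 5′ end and 3 of 40 (7.50%) at a GRCm39 5′ end. The corresponding shares of coding genes were 40.7% and 5.03%. Among marker genes, regions were listed at the 5′ ends of 7 of 10 epithelial genes, 0 of 6 endothelial genes, 0 of 6 fibroblast genes and 1 of 6 immune genes (Cd68, fold 4.58). The epithelial genes with a region were Epcam, Cdh1, Krt8, Krt5, Krt14, Sox9 and Cldn4, and none was listed at the outermost 5′ ends of Krt18, Krt7 and Trp63.

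As background, a cell that divides first copies its genome in S phase and then condenses and separates the copies in mitosis. Genes for replication are switched on around the G1/S boundary by E2F transcription factors, which bind variants of a GC-rich core behind a run of T. Genes for mitosis are switched on later, and many of them carry a cell cycle genes homology region (CHR), which is bound by the MuvB core, the part shared by the repressive DREAM complex of resting cells and by the activating complexes with B-Myb (Mybl2) and FoxM1. The CHR often lies close to CCAAT boxes, which bind the trimeric factor NF-Y. In salivary gland organoids, division of stem and progenitor cells builds the structure, and Mki67 and Top2a are commonly used to mark cycling cells.

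Promoter sequences show which of these elements lie in the open stretches. Promoters of RefSeq (GRCm38.p6, 300 bp each, of which 50 lie after the start of transcription) were at hand for 32 of the 40 genes, with no entry for Ccna2, Aurkb, Tpx2, Foxm1, Kif20a, Mcm4, Gins2 and Ccne2. Both strands were searched for the CHR as TTTGAA or TTCGAA, for the E2F element as TTTCCCGC or TTTGGCGC or TTTCGCGC or TTTGCCGC, and for CCAAT. Matches that overlap on opposite strands were counted separately. Below, up to 200 bases before the start are given 5′ to 3′ in the direction of the gene, without bases inside any annotated gene, and capitals mark the matches on either strand.

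The G2/M promoters of Top2a (chr11:99024200-99024389, minus strand), Cdk1 (chr10:69352913-69353112, minus strand) and Ccnb2 (chr9:70421555-70421754, minus strand) are shown for their combination of CHR and CCAAT, and that of Cenpf (chr1:189688108-189688286, minus strand) because its region had the highest fold of the 40 genes.
Top2a: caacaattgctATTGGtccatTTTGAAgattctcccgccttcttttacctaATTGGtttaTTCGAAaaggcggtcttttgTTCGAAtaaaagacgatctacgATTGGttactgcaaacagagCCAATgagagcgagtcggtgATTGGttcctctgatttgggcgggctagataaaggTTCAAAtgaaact
Cdk1: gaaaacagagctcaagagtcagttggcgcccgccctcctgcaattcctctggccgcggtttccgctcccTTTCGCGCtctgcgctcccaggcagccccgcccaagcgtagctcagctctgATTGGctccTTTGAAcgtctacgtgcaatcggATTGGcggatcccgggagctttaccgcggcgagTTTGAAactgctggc
Ccnb2: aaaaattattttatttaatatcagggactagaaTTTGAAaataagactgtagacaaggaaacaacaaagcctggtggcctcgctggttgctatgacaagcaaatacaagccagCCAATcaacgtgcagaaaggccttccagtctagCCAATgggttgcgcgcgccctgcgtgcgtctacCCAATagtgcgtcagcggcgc
Cenpf: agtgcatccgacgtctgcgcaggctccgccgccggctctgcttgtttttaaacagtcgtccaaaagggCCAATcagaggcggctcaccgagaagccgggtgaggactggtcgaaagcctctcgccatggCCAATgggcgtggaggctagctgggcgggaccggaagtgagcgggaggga
The stretch of Top2a holds 4 CHR and 5 CCAAT matches, and that of Cdk1 holds 2 CHR, 2 CCAAT and 1 E2F match. In Ccnb2 a CHR stands far upstream of 3 CCAAT boxes, and a further CHR begins 5 bases after the start, outside the bases shown. Cenpf has its CHR 3 bases after the start, behind the 2 CCAAT boxes that are shown.

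The S-phase promoters of Mcm6 (chr1:128359706-128359905, minus strand), Mcm5 (chr8:75109309-75109467, plus strand), Mcm3 (chr1:20820313-20820512, minus strand) and Pcna (chr2:132253181-132253337, minus strand) carried E2F or CCAAT matches in place of the CHR.
Mcm6: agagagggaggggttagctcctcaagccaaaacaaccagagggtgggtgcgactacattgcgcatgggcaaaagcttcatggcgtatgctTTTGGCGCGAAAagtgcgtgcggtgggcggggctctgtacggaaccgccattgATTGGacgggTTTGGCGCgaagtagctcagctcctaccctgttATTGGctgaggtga
Mcm5: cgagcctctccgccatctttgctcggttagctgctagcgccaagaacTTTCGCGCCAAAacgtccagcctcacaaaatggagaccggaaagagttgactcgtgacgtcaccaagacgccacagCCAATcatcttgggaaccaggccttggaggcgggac
Mcm3: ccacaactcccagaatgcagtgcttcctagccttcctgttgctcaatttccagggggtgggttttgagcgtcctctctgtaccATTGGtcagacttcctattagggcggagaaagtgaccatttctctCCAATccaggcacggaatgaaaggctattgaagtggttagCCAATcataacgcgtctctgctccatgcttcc
Pcna: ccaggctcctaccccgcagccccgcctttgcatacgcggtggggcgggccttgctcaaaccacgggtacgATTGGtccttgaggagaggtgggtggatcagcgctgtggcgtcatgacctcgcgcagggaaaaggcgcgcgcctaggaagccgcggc
In Mcm6 and Mcm5 a pair of E2F matches overlaps head to head, so that 1 run of capitals stands for 2 matches. Mcm3 has 3 CCAAT boxes in the bases shown, and its 2 E2F matches begin 20 and 39 bases after the start. The region at Mcm3 had the highest fold of the S-phase genes (19.3).

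The promoters of Mki67 (chr7:135716451-135716579, minus strand), Bub1 (chr2:127831860-127832059, minus strand), Kif23 (chr9:61946811-61946999, minus strand) and Rrm2 (chr12:24708054-24708253, plus strand) had no listed region and are shown for comparison with the open ones.
Mki67: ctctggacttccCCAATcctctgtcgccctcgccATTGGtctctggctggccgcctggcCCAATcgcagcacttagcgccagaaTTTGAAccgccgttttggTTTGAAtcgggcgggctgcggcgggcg
Bub1: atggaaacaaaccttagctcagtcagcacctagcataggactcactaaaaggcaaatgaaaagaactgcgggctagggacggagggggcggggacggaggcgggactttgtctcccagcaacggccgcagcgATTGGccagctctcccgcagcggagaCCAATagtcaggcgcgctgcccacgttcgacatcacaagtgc
Kif23: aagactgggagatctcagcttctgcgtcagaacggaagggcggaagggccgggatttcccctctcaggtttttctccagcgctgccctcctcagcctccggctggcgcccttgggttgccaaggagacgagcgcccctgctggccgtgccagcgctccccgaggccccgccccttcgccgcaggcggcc
Rrm2: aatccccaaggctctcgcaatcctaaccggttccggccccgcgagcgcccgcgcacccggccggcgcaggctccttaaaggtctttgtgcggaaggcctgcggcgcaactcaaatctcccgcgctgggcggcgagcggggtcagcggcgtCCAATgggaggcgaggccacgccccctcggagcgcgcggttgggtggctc
Mki67 holds 2 CHR and 3 CCAAT matches within these bases, and Bub1 holds 2 CCAAT boxes with a CHR that begins 15 bases after the start. In Kif23 the CHR begins 3 bases after the start and a CCAAT box 7 bases before it, neither of which is among the bases shown. Rrm2 holds 1 CCAAT box and no CHR. CHR and CCAAT letters thus stood both in promoters with a listed region and in promoters without one.

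The G2/M genes were open in 20 of 24 cases (83.3%, 95% Wilson interval 64.1 to 93.3) and the S-phase genes in 14 of 16 (87.5%, 64.0 to 96.5). These intervals overlap over most of their length, which is no test, and a difference between the 2 classes was not tested. In bulk ATAC-seq an opening present in few cells and a weaker opening present in many cannot be told apart, so the list does not say in which share of the organoid cells these 5′ ends were open. The plot of the regions by gene shows each of them along the gene start.

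**Figure D1:**
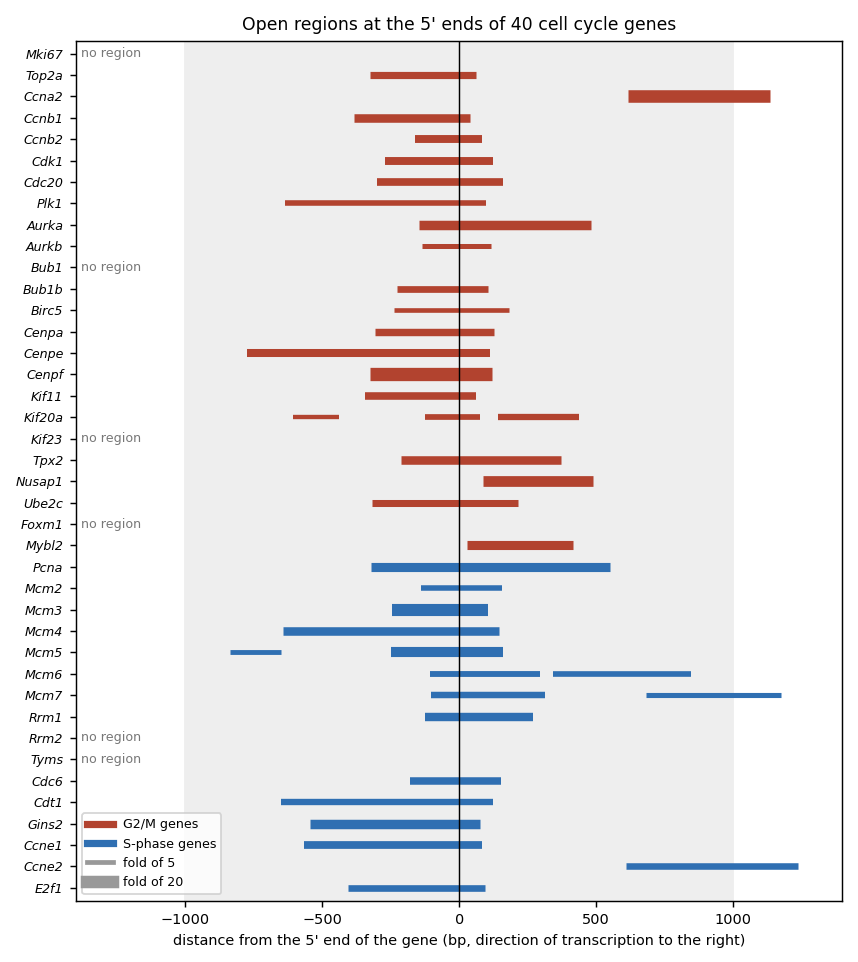
Open regions at the 5′ ends of the 40 cell cycle genes, drawn to scale from the 5′ end (vertical line, in bp, with transcription to the right). Red bars are regions of G2/M genes, blue bars those of S-phase genes, bar thickness grows with the fold, and the grey band is the window of 1 kb on either side; most bars cross the line, Ccna2 and Ccne2 lie far inside the gene, and 6 genes have no region.

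Among the cyclins and their kinase, Ccna2, the cyclin of S phase and early mitosis, had the strongest region, with a fold of 20.1 at chr3:36571903-36572422. Its midpoint lay 876 bp inside the gene and the region did not reach the outermost 5′ end. Cdk1, the kinase that drives entry into mitosis, had a region of fold 11.1 at chr10:69352789-69353182 that crossed its 5′ end. The mitotic cyclins Ccnb1 and Ccnb2 had regions of fold 12.4 (chr13:100786447-100786870) and 11.1 (chr9:70421471-70421717). Both crossed the 5′ end, and the region of Ccnb2, at 247 bp, was the narrowest of the 34. Cyclin E, which partners with Cdk2 at the start of replication, is encoded by Ccne1 and Ccne2, whose regions had folds of 10.8 and 8.49. Ccne1 was open across its 5′ end (chr7:38107408-38108057), whereas the region of Ccne2 (chr4:11191041-11191672) was centred 924 bp inside the gene, as in Ccna2.

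Cdc20 and Ube2c serve the anaphase-promoting complex (APC/C), Cdc20 as its activator and Ube2c as a ubiquitin-conjugating enzyme that works with it. Their regions had similar folds of 10.7 (chr4:118437182-118437645) and 9.44 (chr2:164769612-164770142). Both crossed the 5′ end.

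The 3 mitotic kinases spread widely. Aurka, the kinase of centrosomes and spindle poles, had a region of fold 14.2 (chr2:172370404-172371033), which exceeded that of 91.5% of coding genes with a region. Plk1, the polo-like kinase, had a broad region of 733 bp with 4 summits and a fold of 6.57 (chr7:122158800-122159532). Aurkb, the kinase of the chromosomal passenger complex, had a narrow region of fold 5.51 (chr11:69045488-69045740) with an IDR score of 647. Its partner in that complex, Birc5 (survivin), had the weakest region of the 34 genes, with a fold of 4.77 and an IDR score of 717 (chr11:117848997-117849419). Aurkb and Birc5 were thus the 2 genes at the lower end of the list, and both fell out when only the 50% of regions with the lowest q-values were kept.

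The remaining centromere and kinetochore genes were all open. Cenpf, a large protein of the outer kinetochore, had the region with the highest fold of the 40 genes (21.6, chr1:189687987-189688433), above that of 99.7% of coding genes with a region. Cenpe, the kinetochore kinesin, had the widest region of the 40 genes (888 bp, 5 summits, fold 11.4, chr3:135211787-135212674). Cenpa, the histone H3 variant that marks centromeres, had a region of fold 10.2 (chr5:30666571-30667004). The spindle checkpoint genes were divided. Bub1b, which encodes the checkpoint protein BubR1, had a region of fold 8.83 with an IDR score of 565 (chr2:118597976-118598309), the lowest score among the 34 genes. For the checkpoint kinase Bub1, the nearest region lay 109328 bp away.

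Of the 5 genes for motors and spindle factors, 4 were open. Nusap1, which bundles microtubules, had the highest fold of these (16.6, chr2:119618386-119618786), and Tpx2, which activates Aurora A on the spindle, followed at 12.4 (chr2:152847751-152848336). Kif11, the motor that pushes spindle poles apart, had a fold of 10.5 (chr19:37376039-37376442). Kif20a, a kinesin of the late spindle, had 3 separate regions within 1 kb of its 5′ end, with folds of 4.25, 6.88 and 7.99. Kif23, its relative in cytokinesis, had no region within 1 kb, and a region of fold 4.55 was centred 1427.5 bp upstream of it.

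The pair of genes that mark cycling mSGO cells differed. Top2a, which untangles replicated chromosomes, had a region of fold 9.72 (chr11:99024136-99024525) that crossed its 5′ end and covered all 4 of its CHR matches. For Mki67, whose product coats mitotic chromosomes, the nearest region lay 18654.5 bp upstream (fold 6.90). No region of the list therefore covered the Mki67 promoter shown above, and the label of proliferating cells rests on the names of the genes and not on a measurement of division in these samples.

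The transcription factors that act on G2/M genes were divided as well. Mybl2 had a region of fold 13.4 (chr2:163054357-163054741) centred 222 bp inside the gene. Foxm1 had none within 1 kb, and its nearest region was centred 7230.5 bp upstream (fold 9.41). E2f1, an activator of S-phase genes, had a region of fold 8.67 across its outermost 5′ end (chr2:154569799-154570297).

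All 6 subunits of the replicative helicase were open, with folds from 6.50 to 19.3. Mcm3 led (19.3, chr1:20820208-20820558), followed by Mcm5 (15.4, chr8:75109220-75109629) and Mcm4 (12.4, chr16:15637256-15638042). Mcm7 (8.38, chr5:138171799-138172214), Mcm6 (7.18, chr1:128359408-128359813) and Mcm2 (6.50, chr6:88898623-88898919) formed the lower part. Mcm3 and Mcm2 also had the highest and the lowest fold of all open S-phase genes. Mcm5, Mcm6 and Mcm7 each had a further region within 1 kb, with folds of 5.20, 6.76 and 5.68.

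Among the factors that load and start the helicase, Gins2, a subunit of the GINS complex, had a fold of 14.2 (chr8:120588999-120589619). The loaders Cdc6 and Cdt1 followed at 10.4 (chr11:98907528-98907863) and 8.13 (chr8:122567364-122568140). Pcna, the sliding clamp of the polymerases, had a broad region of 873 bp with a fold of 13.5 (chr2:132252630-132253502). The genes for the supply of nucleotides were divided. Rrm1, the large subunit of ribonucleotide reductase, had a region of fold 12.1 (chr7:102441571-102441966). For Rrm2, the small subunit, the nearest region was centred 1287.5 bp inside the gene with a fold of 2.35, and for Tyms, thymidylate synthase, the nearest lay 53402 bp away.

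At the edge of the 1 kb window stood Ccna2 and Ccne2 just inside, at 876 and 924 bp, and Rrm2 and Kif23 just outside, at 1287.5 and 1427.5 bp. With a window of 500 bp, 32 of 40 genes were open, against 37.7% of coding genes, and with 2 kb, 36 of 40, against 43.9%. Most regions lay much closer, as 31 of 40 cell cycle genes (77.5%) had a region midpoint within 300 bp of the 5′ end, beside 35.1% of all coding genes. The plot of shares against distance shows both classes above all coding genes at every distance drawn, with intervals that overlap each other throughout. At 50 bp the intervals of G2/M genes (6.68 to 35.9) and S-phase genes (6.59 to 43.0) included the 12.5% of coding genes. At 100 bp that of S-phase genes (18.5 to 61.4) included their 21.8%.

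**Figure D2:**
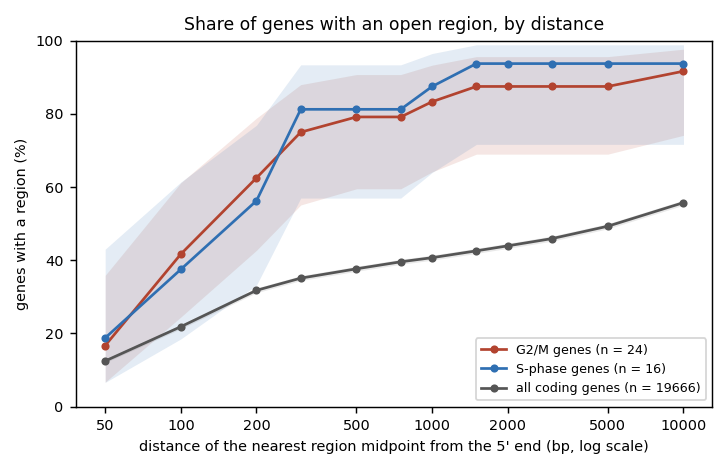
Share of genes (%) whose nearest region midpoint lay within a given distance of the 5′ end (bp, log scale), for 24 G2/M genes, 16 S-phase genes and 19666 coding genes. Shaded bands are 95% Wilson intervals; both red and blue lines climb steeply to 75.0% and 81.2% at 300 bp and rise more slowly beyond, while the grey line stands at 35.1% there.

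Over the 34 open genes the median fold was 10.7 (quartiles 8.54 to 13.2), compared with 8.40 (6.45 to 11.0) over all coding genes with a region. The medians of the 2 classes, 10.9 for G2/M genes and 10.6 for S-phase genes, lay close together and well within their quartiles of 9.28 to 12.6 and 8.41 to 13.2. An IDR score of 1000 was reached at 29 of 34 genes (85.3%), beside 62.6% of coding genes with a region. The 5 genes below it were Bub1b, Aurkb, Birc5, Cdc6 and Mcm6. The plot of folds by gene shows how far single genes ranged around these medians.

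**Figure D3:**
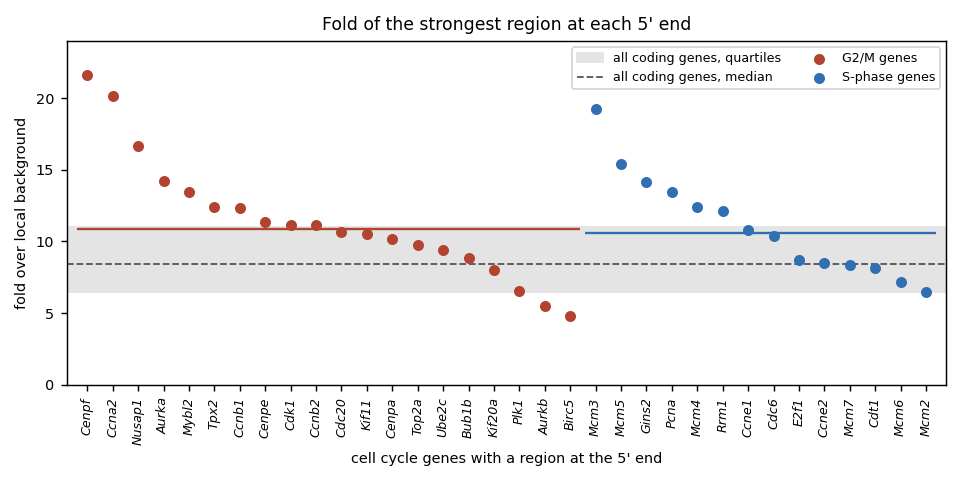
Fold over the local background (ratio, linear axis from 0) of the strongest region at each open 5′ end, 1 point per gene, for 20 G2/M genes (red) and 14 S-phase genes (blue), with coloured lines at the class medians of 10.9 and 10.6. The dashed line and grey band give the median of 8.40 and the quartiles of all coding genes with a region; Cenpf, Ccna2 and Mcm3 stand highest, and Birc5, Aurkb and Mcm2 are among the lowest.

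The regions at cell cycle genes had widths similar to those at coding genes in general. Their median width was 423.5 bp (quartiles 391 to 612), against 480 bp (360 to 618). Of the 34 regions, 22 (64.7%) held several summits, against 78.4%. Only the G2/M genes had a lower share, as several summits were found at 11 of 20 G2/M genes (55.0%) and 11 of 14 S-phase genes (78.6%). The midpoint lay upstream of the 5′ end in 22 of 34 genes (64.7%), beside 52.5% of coding genes with a region, with a median offset of -47.75 bp against -8.5 bp. The region crossed the 5′ end itself in 29 of 34 genes (85.3%, against 81.0%). It did not in Ccna2, Ccne2, Nusap1 and Mybl2, nor did the strongest of the 3 regions of Kif20a. Crossing refers here to the outermost annotated end, which is not always the start of the RefSeq promoter. For Mybl2 that start lay 308 bp inside the outermost end, within its region (30 to 414 bp). For E2f1 and Cdc6 it lay 466 and 442 bp inside, beyond regions that ended at 93 and 154 bp. All these values describe 1 pooled list, and no test was made of them.

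The openness of coding genes varied with base composition and with shared starts, which are therefore set beside it. The ratio of observed to expected CpG dinucleotides in the promoter had a median of 0.909 over 32 cell cycle genes and of 0.629 over 15617 coding genes. In the 28 cell cycle genes with a ratio of at least 0.6, 24 were open (85.7%), against 63.7% of coding genes with such promoters. Of the 4 genes below that ratio, 3 were open, beside 18.1% of coding genes. The part of base composition in the openness of these genes was not tested beyond these shares.

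Another coding 5′ end lay within 1 kb of the start in 7 of 40 cell cycle genes (17.5%), against 11.3% of coding genes. These neighbours were Cstf1 for Aurka, Brd8 for Kif20a, Oip5 for Nusap1, Rhno1 for Foxm1, Cds2 for Pcna, Prkdc for Mcm4 and Ap4m1 for Mcm7. For such pairs the list cannot say to which gene a region belongs. Without them, 28 of 33 genes were open (84.8%), beside 35.9% of coding genes with no such neighbour, so the share barely moved while that of coding genes fell below its value over all.

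A CHR was more frequent in G2/M than in S-phase promoters over the 300 bp searched. Genes of these classes are known for such elements, so the counts describe the promoters that the regions cover and are no independent evidence on the elements. A CHR stood in 14 of 19 G2/M promoters (73.7%, 95% Wilson interval 51.2 to 88.2) and in 2 of 13 S-phase promoters (15.4%, 4.33 to 42.2), against 16.9% of coding promoters. The S-phase share was thus close to that of all promoters, and the intervals of the 2 classes did not overlap. The E2F element stood in 1 of 19 G2/M promoters (5.26%, 0.935 to 24.6) and 6 of 13 S-phase promoters (46.2%, 23.2 to 70.9), against 3.14% of coding promoters. These intervals overlapped only between 23.2 and 24.6, and an overlap of intervals is no test of a difference. With only bases before the start, 4 of 13 S-phase promoters (30.8%) and again 1 of 19 G2/M promoters held the E2F element. Every E2F spelling searched holds a CpG. A CpG ratio of at least 0.6 was found in 76.9% of S-phase, 94.7% of G2/M and 52.5% of coding promoters. Motif shares among coding promoters of like CpG ratio were not computed. CCAAT was found in 16 of 19 G2/M promoters (84.2%) and 8 of 13 S-phase promoters (61.5%), against 38.9% of coding promoters. Those intervals, 62.4 to 94.5 and 35.5 to 82.3, overlapped.

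Every G2/M promoter with a CHR also had a CCAAT box, so that 14 of 19 (73.7%) held both, beside 6.91% of coding promoters. The 14 genes were Top2a, Mki67, Cdk1, Ccnb2, Cdc20, Ube2c, Plk1, Aurka, Bub1, Bub1b, Cenpa, Cenpf, Kif11 and Kif23. Ccnb1 and Cenpe had CCAAT boxes without a CHR, and Birc5, Mybl2 and Nusap1 had none of the motifs. Of the S-phase genes, E2F matches stood in Mcm3, Mcm5, Mcm6, Mcm7, Cdc6 and Cdt1, while Ccne1, E2f1 and Tyms had none of the motifs. Cdk1 was the G2/M gene with an E2F match, 131 bases before the start, and Mcm7 and Mcm2 were the S-phase genes with a CHR. The search covers 300 bp and these letters only, so an element elsewhere or spelled otherwise would not be counted.

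All matches lie near the start, because only 250 bases before it and 50 after it were searched. The 21 CHR matches of G2/M promoters lay between 188 bases before and 41 bases after it, with a median 19 bases before, and 8 of them began after it. Counting only bases before the start, a CHR stood in 8 of 19 G2/M promoters (42.1%, 95% Wilson interval 23.1 to 63.7) and in 2 of 13 S-phase promoters (15.4%, 4.33 to 42.2), against 15.1% of coding promoters. The intervals of the 2 classes overlapped in that count, whereas over the whole 300 bp, with matches after the start, they did not. Neither is a test of a difference. CCAAT matches of G2/M promoters had a median position 83 bases before the start, upstream of the CHR. In genes with a region, 18 of 19 CHR matches, 10 of 12 E2F matches and 46 of 47 CCAAT matches lay with all their bases inside a listed region. High counts are largely set by the choice of genes, whose regions had a median width of 423.5 bp beside the 300 bp searched. The share of all searched bases inside a region was not computed, so the counts say nothing particular about the elements. The upstream CHR of Ccnb2 and 1 E2F match of Mcm6, which begins 110 bases before the start, each crossed the edge of a region. The E2F match of Cdc6 and 1 CCAAT box of Mcm2 lay outside. The plot of motif positions sets these beside the matches of Mki67, Bub1, Kif23 and Rrm2, which lay in no region.

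**Figure D4:**
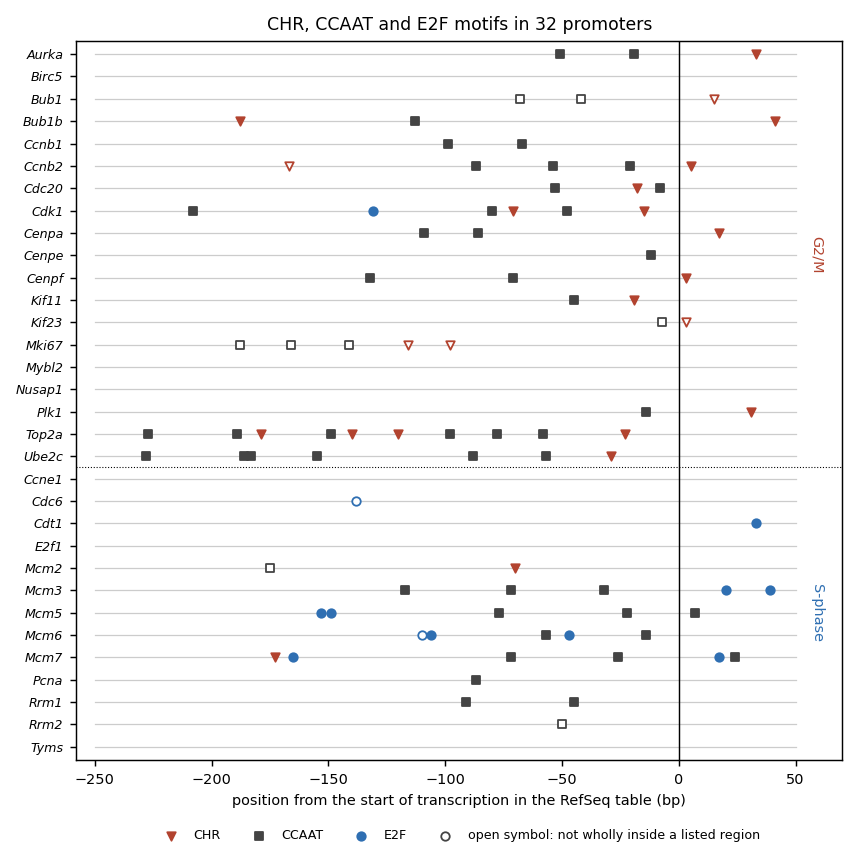
Positions (bp from the RefSeq start of transcription) of CHR (red triangles), CCAAT (dark squares) and E2F matches (blue circles) in the promoters of 19 G2/M genes (above the dotted line) and 13 S-phase genes (below it). Filled symbols lie wholly inside a listed region and open symbols outside it or across its edge; triangles gather near the start in G2/M genes, and circles stand in S-phase genes and Cdk1.

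Beyond the 5′ ends, 37 of 40 cell cycle genes had at least 1 region over 1 kb from their own 5′ end and inside the gene or within 50 kb of it (92.5%), against 78.6% of coding genes. These were 22 of 24 G2/M genes and 15 of 16 S-phase genes. The number per gene ran from 0 to 8 with a median of 3, beside a median of 2 over all coding genes. That difference depended on the stretch and the list, since cell cycle and coding genes had equal medians with a flank of 20 kb (1), with 100 kb (5) and with only the regions of lowest q-value (1). In all there were 131 such pairs of gene and region, and 1 region lay near both Cdc6 and Top2a and was counted for each.

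Part of these regions lay at the 5′ ends of neighbouring genes, and 85 of the 131 lay over 1 kb from any coding 5′ end. Restricted to the latter, 30 of 40 genes had one (75.0%), against 68.2% of coding genes, with a median of 1 in both sets. The difference from all coding genes was small by this measure. Mki67 and Tpx2 had the most regions, 8 each, all of them over 1 kb from any coding 5′ end. Those of Mki67 stood in a group of 4 upstream, from 18654.5 to 32761 bp, with folds from 6.90 to 10.9, and in a group of 4 beyond its 3′ end. The nearest coding 5′ end to all of them was that of Mki67 itself. Of the 8 regions of Tpx2, 6 lay between 16225.5 and 27411 bp upstream of its 5′ end. The nearest coding 5′ end to these 6 was that of Bcl2l1, 2064.5 to 13250 bp away, and to the other 2 that of Mylk2, both names being given after their values were seen. Cdk1, Bub1 and Mcm3 had none, although Cdk1 and Mcm3 were open at the 5′ end.

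Some neighbouring regions were singled out after their values were seen. The highest fold among regions far from any coding 5′ end was 15.1, at chr6:128338872-128339338, which lay 23889 bp upstream of Foxm1. The nearest coding 5′ end to it was that of Tulp3, 16768 bp away. Ccne1 had regions of fold 14.3 and 12.0 beyond its 3′ end (chr7:38077156-38077544 and chr7:38084632-38085357), for which its own 5′ end was the nearest coding one. Mybl2 had a region of fold 13.0 inside the gene (chr2:163075078-163075631), nearly as high as the 13.4 of its 5′ region. It lay 21027.5 bp from the 5′ end of Mybl2 and 14246.5 bp from that of Gtsf1l, a name given after its values were seen. Both regions near Tyms lay at the 5′ end of Il6, and the region closest to Foxm1 lay 109.5 bp from the 5′ end of Tulp3. No value in the list links any of these regions to a cell cycle gene.

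Inside the genes themselves, regions were rare. Only Mybl2, Mcm6 and Rrm2 had a region within the gene and over 1 kb from the 5′ end, 3 of 40 genes (7.50%) beside 27.3% of coding genes. Cell cycle genes were shorter, with a median length of 14522 bp against 19537 bp, and per length the numbers were 0.382 and 1.18 regions per 100 kb. The first of these numbers rests on 3 regions, 1 in a G2/M gene (0.182 per 100 kb) and 2 in S-phase genes (0.843 per 100 kb). The median number of other coding 5′ ends in the examined window was 2 in both sets.

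Other cell cycle genes, taken from lists chosen by function, gave a similar picture. Of 167 such genes that are not among the 40, 142 were open at the 5′ end (85%, 95% Wilson interval 78.8 to 89.6). Other S-phase genes were open in 37 of 42 cases (88.1%), without Cdca7, Fen1, Lig1, Orc1 and Prim1, and other G2/M genes in 42 of 44 (95.5%), without Pimreg and Sgo1. All 14 checkpoint genes were open. Lower shares were found for subunits and partners of APC/C (14 of 17), DREAM and E2F factors (13 of 16), condensin and cohesin (12 of 17) and inhibitors of cyclin-dependent kinases (5 of 7, without Cdkn1a and Cdkn1c).

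Among the cell cycle lists, the lowest share was that of the list called G1 cyclins and kinases, with 5 of 10 open. Its Wilson interval of 23.7 to 76.3% included the 40.7% of all coding genes. The list was drawn more widely than its name, as it also held Ccnh, Cdk7, Cdc25a and Skp2. Its share therefore does not describe cyclins and kinases of G1 alone. The 3 D-type cyclin genes Ccnd1, Ccnd2 and Ccnd3 had no region at the outermost 5′ end, nor did Cdk6 and Skp2, whereas Cdk7 (fold 12.6), Cdc25a (11.6), Ccnh (10.1), Cdk4 (6.39) and Cdk2 (5.74) did. Among the DREAM and E2F factors, Lin9, Lin37, Lin52, Lin54 and Rbbp4 of the MuvB core were all open, with folds from 6.19 for Lin9 to 14.9 for Lin52. The plot of shares by list puts the cell cycle lists beside the cell type markers.

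**Figure D5:**
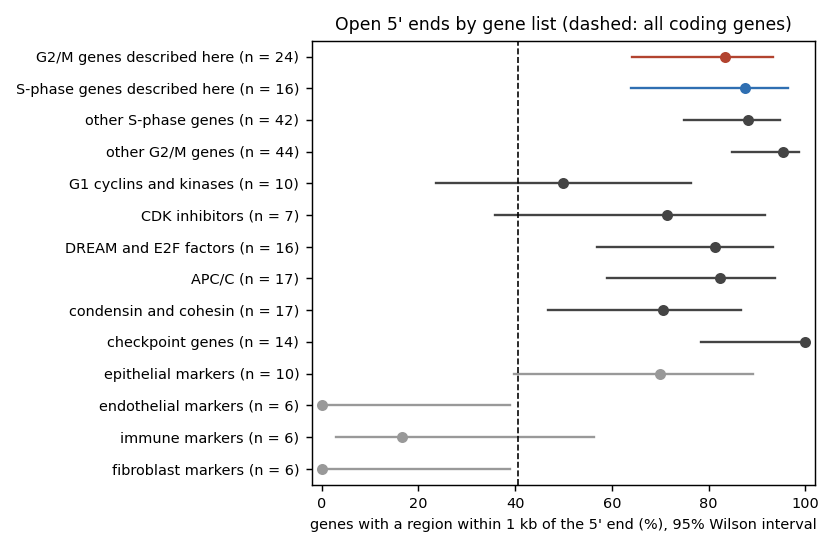
Share of genes (%) with a region within 1 kb of the 5′ end in each list, with n in the labels and bars for 95% Wilson intervals; red and blue are the 24 G2/M and 16 S-phase genes, dark grey other cell cycle lists and light grey cell type markers. The dashed line marks 40.7% for all coding genes; the G1 list at 50.0% and the endothelial, immune and fibroblast markers lie lowest.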

How the data were processed

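Bulk ATAC-seq of 4 mSGO samples had been sequenced as 75 bp paired-end reads. Alignment and peak calling were done by the authors in the ENCODE pipeline for ATAC-seq, and the submitters' processing notes also name GRCm39 and HOMER. Versions of aligner and caller are not given in the sources used here. The deposited list is 1 table for all samples. Per summit it gives the authors' IDR score, the fold (a ratio of signal to local background) and p- and q-values as −log10. The study's methods mention consensus peaks from every organoid sample, but their number differs from that of this list, so its origin as that file is an assumption. Columns of per-sample values numbered 0.

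Lines with the same start and end were joined into 1 region, which carried the values of its summit with the highest fold. Genes came from a RefSeq table of GRCm38.p6, with strand by symbol and chromosome from GENCODE mouse release M39 (GRCm39), which left 19666 of 21900 coding genes. Distances were measured from the outermost 5′ end. Promoters came from a RefSeq table of the same build. Where it held several starts for a gene, only the start nearest the outermost 5′ end was used and searched for motifs. That start was the outermost 5′ end itself in 19 of 32 cell cycle genes.

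Shares were given with 95% Wilson intervals, and no set test, resampling or p-value was computed, because genes are not replicates. The members and all gene lists were chosen with earlier results of these data known. All 40 genes are described, and genes outside them are named from the lists or as coding genes within 1 kb of a 5′ region, unless said to be chosen after their values were seen. Promoters were to be printed for the 3 G2/M and 3 S-phase genes with the highest fold and for 4 genes without a region, in alphabetical order, as far as the table holds them. Of these, Aurka and Nusap1 were not printed because the bases lie inside a gene, and Top2a, Cdk1, Ccnb2 and Mcm6 were added after their values were seen. Lookups were tested on simulated data. The work was done in Python 3.11.15 (pandas 2.3.3, numpy 2.4.6, scipy 1.17.1, matplotlib 3.10.9).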

Additional observations from a re-analysis of the deposited data

How the results depend on the processing

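Of 93 alternative values, 80 stayed within the 95% Wilson interval (shares) or within 1.5 times (medians and counts) of the value reported, and 13 moved further. The 80 include counting Mybl2 and Ccna2 as S-phase genes, which cannot move a value over all cell cycle genes. Wilson intervals of so few genes are also wide, so staying within them is a weak criterion. The share of cell cycle genes with a region at the 5′ end ranged from 72.5% with only the 14422 regions of IDR score 1000 (coding genes 25.5%) to 90% within 2 kb (coding genes 43.9%), and was 80.0% with the 16006 regions of lowest q-value (coding genes 27.5%). The median number of regions beyond the 5′ end depended on the stretch examined. With flanks of 20 kb it was 1 over all 40 genes, 1 for G2/M genes and 1.5 for S-phase genes (coding genes 1). With 100 kb it was 5 over all, 4.5 for G2/M genes and 6 for S-phase genes (coding genes 5). Over 1 kb from any coding 5′ end it was 1, 1 and 2, and with the lowest q-values it was 1, 1 and 2, in the same order (coding genes 1 in both). Counting only bases before the start, a CHR stood in 31.25% of all 32 promoters and in 42.1% of G2/M promoters (S-phase 15.4%), since 8 CHR matches begin after the start. With any start in the promoter table, an alternative chosen after seeing the data, 27 of 32 genes were open (84.4%, coding genes 45.7%). No paired analysis was possible because the list pools the samples, and single replicates could not be left out for the same reason. A gene without a listed region may still be open below the limit of the list. That limit can depend on the unknown depth and on how well peaks agreed between replicates in the IDR procedure.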
